A study of Mus musculus with 6 samples.

Results

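The mitochondrial ribosomal protein genes were taken as the probe sets whose annotated symbol begins with Mrpl or Mrps followed by a digit, with 1 probe set per gene, the one with the highest mean over all 6 arrays. This gave 76 of the 18193 genes with a symbol of their own, 47 named Mrpl and 29 named Mrps, read by 156 probe sets in all. Mrpl30 and Mrpl53 did not enter, because each of their probe sets is annotated to a further gene as well (Gm6238 and Ccdc142). RNA came from hematopoietic stem cells (HSCs) of adult mice, sorted as negative for lineage markers and CD48 and positive for Sca1, cKit and CD150. There were 3 arrays from PU.1 ki/ki mice, homozygous for a knock-in allele of PU.1, and 3 from wild-type mice. The labels describe neither the altered site nor a promoter or Cre, and do not say whether replicates were separate animals or pools, so p-values here reflect only how these samples vary, which may be technical. PU.1, encoded by Spi1, belongs to the ETS family of transcription factors and directs the myeloid and lymphoid lineages, and the comparison asked how HSCs with the knock-in allele differ from wild-type HSCs.

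The mitochondrial ribosome translates the few proteins encoded by mitochondrial DNA, all of them core subunits of the respiratory chain and ATP synthase. Its RNAs are encoded in the mitochondrion, whereas its proteins are encoded in the nucleus, made in the cytosol and imported. The small subunit binds the mRNA and decodes it, and the large subunit joins the amino acids and releases the chain at the inner membrane. Part of the proteins have homologues in the bacterial ribosome and the others are specific to mitochondria. Adult HSCs are known for low respiration and for a low rate of protein synthesis.

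Promoters of nuclear genes for mitochondrial proteins are known for sites of GABP, which like PU.1 is an ETS factor, and of NRF1. RefSeq promoter windows (GRCm38.p6, 250 bases before to 50 after the start) were matched for 67 of the 76 genes, and were searched on both strands for CCGGAAGT (ETS, GABP type), GAGGAAGT (ETS, PU.1 type) and GCGCATGC (NRF1). Both ETS motifs end in GGAAGT and differ in the letters before it, so the same copy of GGAAGT cannot be counted for both. The windows of Mrpl10, Mrps26 and Mrpl43 are shown because these were, of the genes named below that hold a motif, those with the lowest p. Capitals mark the motif as read on the gene's strand, so that GCATGCGC is the NRF1 motif and ACTTCCGG the GABP type on the opposite strand. The windows lie at chr11:97041332-97041631 (plus strand, Mrpl10), chr2:130563507-130563806 (plus strand, Mrps26) and chr19:45006393-45006692 (minus strand, Mrpl43).
Mrpl10: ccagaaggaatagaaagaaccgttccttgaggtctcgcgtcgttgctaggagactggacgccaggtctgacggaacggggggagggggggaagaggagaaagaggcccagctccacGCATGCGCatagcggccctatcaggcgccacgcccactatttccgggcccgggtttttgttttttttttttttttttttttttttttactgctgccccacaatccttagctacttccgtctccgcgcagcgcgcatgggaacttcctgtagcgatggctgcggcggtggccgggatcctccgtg
Mrps26: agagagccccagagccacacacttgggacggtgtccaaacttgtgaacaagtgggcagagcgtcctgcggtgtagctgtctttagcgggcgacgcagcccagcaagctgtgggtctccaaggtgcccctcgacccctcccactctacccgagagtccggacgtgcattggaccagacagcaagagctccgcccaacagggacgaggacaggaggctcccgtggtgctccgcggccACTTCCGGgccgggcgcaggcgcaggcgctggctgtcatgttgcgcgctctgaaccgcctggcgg
Mrpl43: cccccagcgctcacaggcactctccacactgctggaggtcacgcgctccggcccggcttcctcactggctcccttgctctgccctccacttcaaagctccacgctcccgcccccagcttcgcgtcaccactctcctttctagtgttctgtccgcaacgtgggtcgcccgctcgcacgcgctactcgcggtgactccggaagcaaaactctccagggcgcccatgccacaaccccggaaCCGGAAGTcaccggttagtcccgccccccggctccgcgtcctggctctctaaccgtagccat

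The NRF1 motif of Mrpl10 began at -134 from the start, and the GABP-type motifs of Mrps26 and Mrpl43 at -15 and -12. The GABP-type motif was in the windows of 12 of the 67 genes (17.9%), against 4.31% of the 27025 genes of the table. The NRF1 motif was in 8 (11.9%, against 3.05%) and the PU.1-type motif in 1 (1.49%, against 3.69%). A match is a description of the letters and not a bound site. Of the 12 genes with the GABP-type motif 8 read higher in PU.1 ki/ki, with a median log2 difference of 0.24 against 0.17 for the matched genes without it, so the genes with the motif lay close to those without.

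No mitochondrial ribosomal protein gene passed the test of PU.1 ki/ki against wild-type HSCs, and their counts of nominal differences were near those of all genes. Of the 76 genes 46 read higher in PU.1 ki/ki and 30 lower, with log2 differences from -0.98 for Mrpl28 to 1.90 for Mrps17 and a median of 0.17. Over all named genes 52.2% were higher and 47.8% lower, and the median was 0.0083. Without dim probe sets, those whose mean level lies below the median of all, 57.9% of the remaining 11049 named genes were higher. All 76 genes remained in that setting, with 46 higher. In limma, with Benjamini-Hochberg adjustment over 45037 probe sets, 0 of the 76 had an adjusted p under 0.05 (0% of all named genes did), and the lowest was 0.463. Without adjustment, 3 genes were higher at a p under 0.05 (3.95%, against 4.39% of all named genes) and 3 were lower (3.95%, against 4.27%). PU.1 ki/ki and wild-type values were fully separate in 6 higher genes (7.89%, against 6.44%) and 4 lower ones (5.26%, against 6.36%). In an RNA preparation from sorted cells, fewer cells of a type and less RNA per cell cannot be told apart. After a further quantile normalization 39 of the 76 genes and 44.9% of all named genes were higher, and with centred arrays 41 and 42.6%. The unadjusted counts were then 1 higher and 4 lower after quantile normalization (3.26 and 5.92% of all named genes), and 2 and 3 with centred arrays (3.36 and 5.52%). Centring moved the median of all named genes by -0.11, and the median of the 76 from 0.17 to 0.064, above the -0.099 of all genes.

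**Figure D1:**
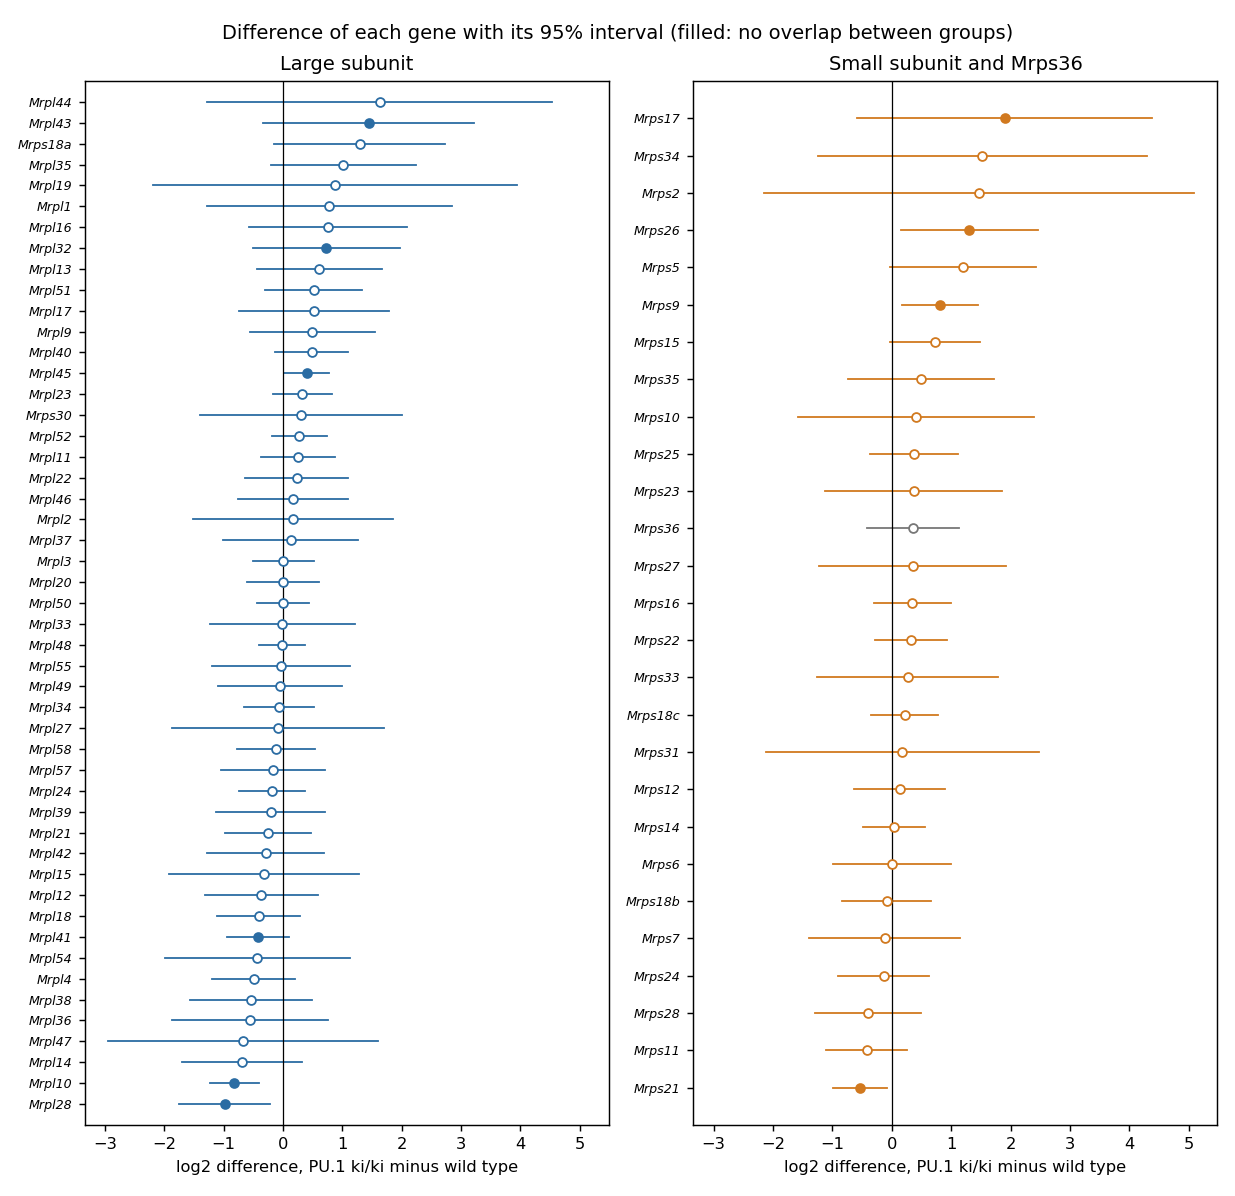
Log2 difference, PU.1 ki/ki minus wild type (x axis), for each of the 76 genes (rows), by the subunit the protein belongs to, with the 95% interval from limma. Filled points are the 10 genes whose groups do not overlap. The large subunit genes lie on both sides of 0 and most small subunit genes to the right of it, with intervals that for most genes span 0.

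Properties of the whole series touch these values. Wild-type replicates 2 and 3 stood apart, with Pearson correlations to other arrays of at most 0.880 and 0.859, against highest values of 0.926 to 0.951 on the other 4 arrays. For Gapdh, signal near the 3' end over that near the 5' end gave ratios of 6.11 and 6.68 on them. This ratio was 3.06, 2.98 and 4.75 in PU.1 ki/ki and 3.36 on wild-type replicate 1. Upper quartiles of intensity were 154 and 150 on wild-type replicates 2 and 3. They were 186 to 188 in PU.1 ki/ki and 180 on wild-type replicate 1. A gene counts as lost on an array where its intensity is 4-fold or more under the median of the remaining arrays, provided this median reaches 512. On wild-type replicates 2 and 3, 10.6 and 10.7% of bright named genes were lost, against 2 of 44 (4.55%, Mrps26 and Mrpl44) and 1 of 44 (2.27%, Mrps2) of the mitochondrial ribosomal protein genes. On the other 4 arrays 0 of these genes were lost. Spi1 read 170, 212 and 161 in PU.1 ki/ki and 158, 195 and 199 in wild type (-0.026 ± 0.18 SE), so this transcript did not check the label. Of the stem cell markers 6 of 8 were measured, with summed intensities of 7133 to 8836 in PU.1 ki/ki and 5890 to 8175 in wild type. Mecom, Gata2 and Slamf1 read higher on average and Kit, Procr and Hlf lower, all with overlap. Slamf1, which encodes the CD150 of the gate, read 696, 1525 and 170 in PU.1 ki/ki against 440, 54 and 42 in wild type. The 5 neutrophil markers summed to 6915 to 9728 in PU.1 ki/ki and 9700 to 16586 in wild type, with a narrow overlap. Of these, the granule protease Ctsg read 804 to 822 against 1527 to 3739. The 3 measured erythroid markers summed to 234 to 243 against 122 to 225, without overlap, which the erythroid factor Klf1 set at 118 to 159 against 11 to 42. Epor (43 to 80 against 16 to 166) overlapped, and the globin gene Hba-a1 was lower without overlap (36 to 47 against 48 to 85). The CD48+ progenitor markers summed to 293 to 814 against 155 to 834. Sums of the 4 B cell markers (281 to 323 against 172 to 750), the 4 T cell markers (152 to 259 against 216 to 247) and the 5 macrophage markers (308 to 502 against 181 to 351) overlapped. The part of these differences in the results below was not tested.

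On the probe sets used, the small subunit held most of the excess of higher over lower genes. In PU.1 ki/ki, 20 of its 26 measured proteins read higher and 6 lower, and their median difference was 0.34. Of the 49 measured large subunit proteins 25 were higher and 24 lower, with a median of 0.00064. With the mean of all probe sets of a gene, 31 of 49 large subunit genes (median 0.18) and 19 of 26 small subunit genes (median 0.34) were higher. Mrps30 and Mrps18a are counted with the large subunit, where structures place them. Relative to each gene's mean, the median level of the small subunit was 0.25, 0.24 and 0.061 on PU.1 ki/ki replicates 1, 2 and 3, and 0.064, -0.047 and -0.20 on the wild-type ones. The groups thus met at PU.1 ki/ki replicate 3 and wild-type replicate 1. For the large subunit these levels were 0.054, 0.090 and 0.022 in PU.1 ki/ki and -0.038, 0.15 and -0.027 in wild type. The PU.1 ki/ki arrays lay above wild-type replicates 1 and 3 and below replicate 2. The small subunit median was 0.18 after quantile normalization and 0.23 after centring, and 0.21 to 0.39 as each array was dropped in turn. Against wild-type replicate 1 alone it was 0.24, with 15 of 26 higher, and that of the large subunit 0.042, with 26 of 49 higher. Of all named genes 47.0% were higher in that setting. The difference between the subunits was not tested, and neither was the part of the Gapdh ratio in these levels.

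**Figure D2:**
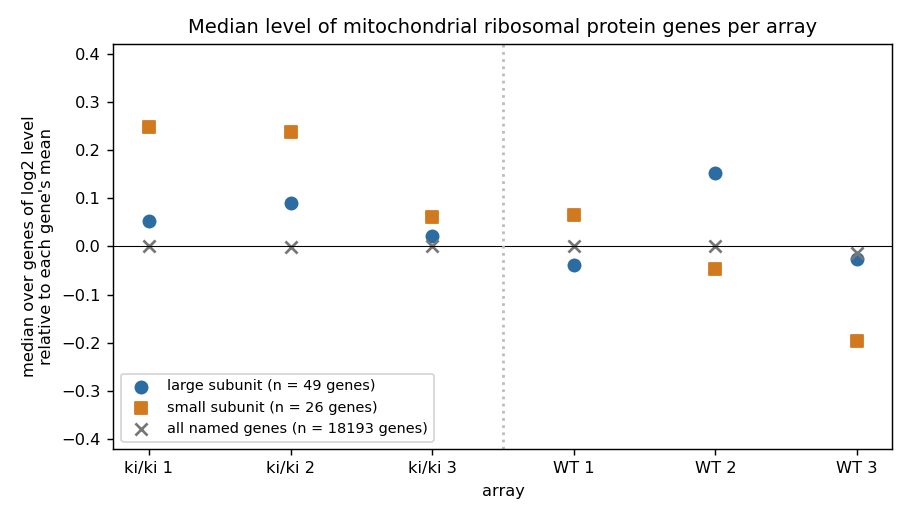
Median over genes of the log2 level relative to each gene's mean (y axis) on each array (x axis), for large subunit genes, small subunit genes and all named genes. Small subunit genes are at 0.25, 0.24 and 0.061 in PU.1 ki/ki and at 0.064, -0.047 and -0.20 in wild type, and all named genes stay near 0.

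By origin, the mitochondria-specific proteins of the small subunit were higher in 9 of 10 genes (median 0.36, and 0.18 with 6 of 10 higher against wild-type replicate 1 alone) and the bacterial homologues in 11 of 16 (median 0.17). In the large subunit the mitochondria-specific proteins were higher in 11 of 20 (median 0.066) and the bacterial homologues in 14 of 29 (median -0.0089). The median of the mitochondria-specific large subunit genes was -0.067 without wild-type replicate 1 and 0.27 without replicate 2, and that of the bacterial homologues of the small subunit ran from 0.088 to 0.28 as each array was dropped in turn. Mrps18a and Mrps18b, whose family derives from bacterial S18, are counted here as mitochondria-specific. At an unadjusted p under 0.05 these 4 groups had 1, 1, 1 and 0 higher and 0, 1, 0 and 2 lower genes, against 4.39 and 4.27% of all named genes.

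Among large subunit genes, Mrpl10 had the lowest p of all 76. It encodes the protein that anchors the stalk, the arm on which translation factors dock. It read 118, 157 and 121 in PU.1 ki/ki and 242, 237 and 218 in wild type. All PU.1 ki/ki values lay below all wild-type ones, and both groups were tight. The log2 difference was -0.82 ± 0.16 (SE, limma adjusted p = 0.463), and -0.95 to -0.75 as each array was dropped in turn. The other stalk genes overlapped between groups. Mrpl12, whose protein forms the mobile arm, read 387, 423 and 298 against 393, 337 and 784 (-0.36 ± 0.37), and 0.0058 without wild-type replicate 3. Mrpl11, at the base of the stalk, read 1233, 1221 and 1299 against 1415, 1051 and 782 (0.25 ± 0.24), and -0.18 against wild-type replicate 1 alone. The other Mrpl11 probe sets differed by 0.77, -0.063 and 0.46, all with overlap.

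Mrpl28, homologous to bacterial L28, read 351, 468 and 659 in PU.1 ki/ki and 813, 852 and 1204 in wild type. The groups did not overlap, and the difference was -0.98 ± 0.30 (adjusted p = 0.542). Its other probe sets went against this, with 447, 396 and 520 against 497, 123 and 221 on the brighter one (0.92). The probe set that was used carries, as does that of Mrpl11, the suffix that Affymetrix gives to probes that may cross-hybridise. Mrpl41, a mitochondria-specific protein, read 809, 851 and 579 against 908, 950 and 1125 (-0.43 ± 0.20, adjusted p = 0.644). A further Mrpl41 probe set also had no overlap, at 426, 419 and 400 against 528, 427 and 616 (-0.32), while the remaining one was near 0 (0.02).

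Higher without overlap were 3 large subunit genes. Mrpl45 encodes the protein at the exit of the peptide tunnel that holds the ribosome to the inner membrane. It read 141, 182 and 149 in PU.1 ki/ki and 117, 124 and 114 in wild type, a narrow separation with a difference of 0.40 ± 0.15 (adjusted p = 0.594), which was 0.18 after quantile normalization. Mrpl43, a mitochondria-specific protein, read 338, 313 and 347 against 42, 248 and 172. The PU.1 ki/ki values were close together and wild-type replicate 1 was far below the rest, so the difference of 1.44 ± 0.69 (adjusted p = 0.645) was 0.68 without that array. Mrpl32, homologous to bacterial L32, read 386, 323 and 370 against 319, 103 and 304. The groups nearly touched, and the difference of 0.73 ± 0.49 (adjusted p = 0.705) was 0.20 without wild-type replicate 2.

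Mrpl44, an RNase III-like protein specific to the mitochondrial ribosome, read 951, 1010 and 2239 against 933, 77 and 1002. It is an example of a value set by 1 array, since its difference of 1.63 ± 1.14 was 0.42 without wild-type replicate 2. Another probe set of Mrpl44, singled out after its values were seen, read 582, 565 and 571 against 373, 254 and 291. There the groups did not overlap and the difference was 0.92 ± 0.18 (adjusted p = 0.463). Its remaining probe sets overlapped, at 609, 808 and 1076 against 773, 669 and 893 (0.066) and 62, 78 and 62 against 53, 22 and 96 (0.46). Mrpl3, homologous to the L3 of the peptidyl transferase centre, read 1040, 813 and 1200 against 976, 1134 and 901. Its difference of 0.0083 ± 0.20 had a 95% interval of -0.50 to 0.52, within 2-fold in either direction on the scale where 1 is a doubling.

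In the small subunit, Mrps9 and Mrps26 had the lowest p among the higher genes. Mrps9, homologous to bacterial S9, read 860, 617 and 899 in PU.1 ki/ki and 396, 581 and 381 in wild type. The groups came close only at PU.1 ki/ki and wild-type replicate 2. The difference was 0.81 ± 0.25 (adjusted p = 0.546), and 0.70 to 1.01 as each array was dropped in turn. The 3 other Mrps9 probe sets shared the sign (0.47, 0.22 and 0.79), all with overlap. Mrps26, specific to mitochondria, read 687, 716 and 616 against 396, 137 and 365. Its difference of 1.31 ± 0.45 (adjusted p = 0.575) was 0.82 without wild-type replicate 2, on which it counted as lost. Mrps17, homologous to bacterial S17, read 558, 480 and 377 against 338, 196 and 28. Wild-type replicate 3 set much of its difference of 1.90 ± 0.97 (adjusted p = 0.657), which was 0.85 without that array. Mrps21, homologous to bacterial S21, was the only small subunit gene that was lower without overlap. It read 801, 908 and 1077 against 1171, 1525 and 1339 (-0.54 ± 0.18, adjusted p = 0.565).

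**Figure D3:**
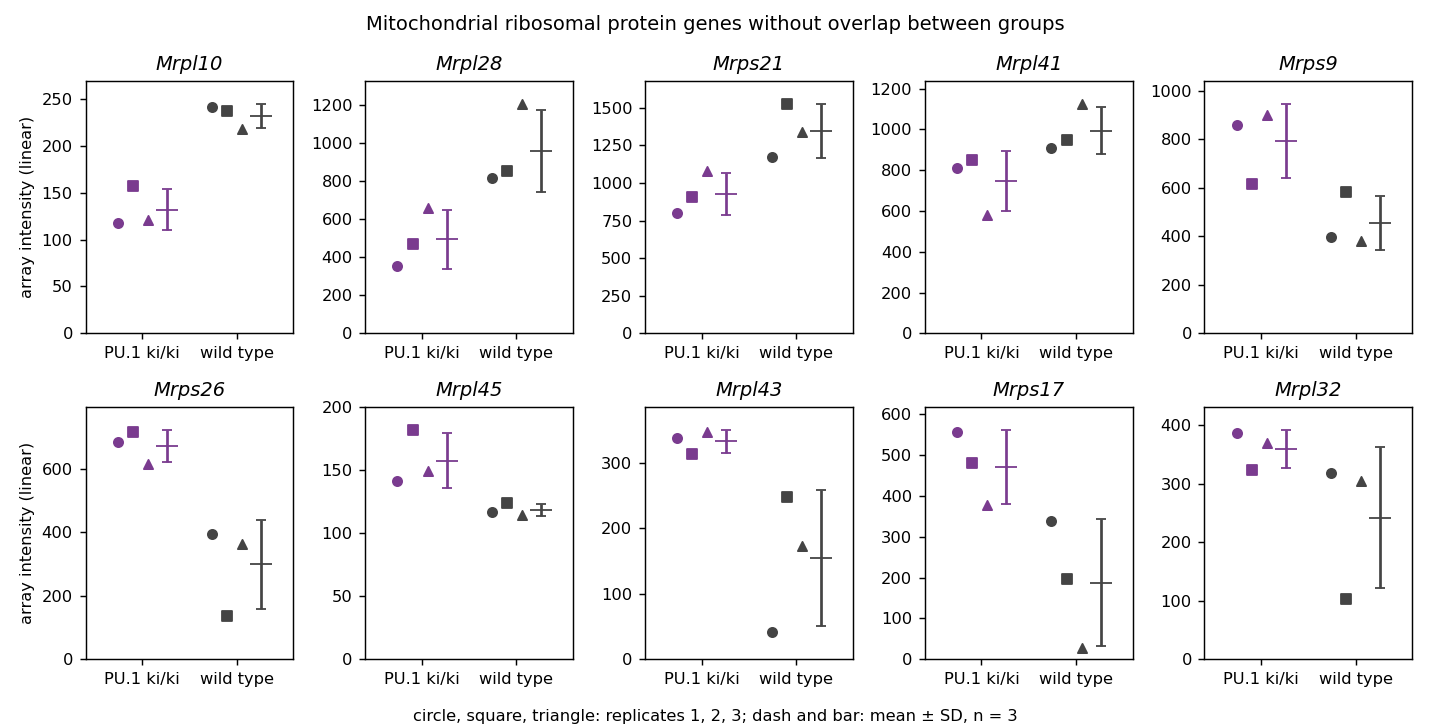
Array intensity on a linear scale (y axis, from 0) of the 10 genes whose PU.1 ki/ki and wild-type values do not overlap, with each replicate as a point and the mean ± SD (n = 3) beside it. The first 4 panels (Mrpl10, Mrpl28, Mrps21, Mrpl41) are lower in PU.1 ki/ki and the other 6 higher. In Mrps26, Mrpl43, Mrps17 and Mrpl32 a single wild-type array lies far below the rest.

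The genes of the decoding site and the S18 family all overlapped between groups. Mrps12, homologous to the S12 of the decoding centre, read 632, 493 and 489 against 420, 381 and 726 (0.13 ± 0.30, and -0.012 after quantile normalization). Bacterial S18 has 3 mouse homologues, of which Mrps18b and Mrps18c lie in the small subunit and Mrps18a in the large. Mrps18a read 702, 669 and 473 against 196, 552 and 139 (1.29 ± 0.56, adjusted p = 0.621). It overlapped through wild-type replicate 2. Mrps18b read 869, 1059 and 717 against 678, 920 and 1270 (-0.088 ± 0.29, and 0.36 against wild-type replicate 1 alone). Mrps18c read 1856, 1727 and 1303 against 1218, 1283 and 1710 (0.21 ± 0.22). The 3 paralogues thus had estimates of differing size and sign, with intervals of -0.15 to 2.73, -0.83 to 0.66 and -0.35 to 0.78. Mrps30 read 565, 601 and 562 against 657, 911 and 170 (0.30 ± 0.66), and -0.43 without wild-type replicate 3. Mrps36, which later work placed in the oxoglutarate dehydrogenase complex rather than in the ribosome, read 394, 383 and 274 against 192, 272 and 371 (0.36 ± 0.30), and 0.12 without wild-type replicate 1 and 0.60 without wild-type replicate 3.

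The remaining genes overlapped between groups. Of all 76, 21 (27.6%) had a 95% interval that lay within a doubling or halving, against 26.2% of all named genes. A difference above a doubling was estimated for 9 genes, all higher, and above a halving for 0, against 8.93 and 2.98% of all named genes. Standard errors ran from 0.15 for Mrpl45 to 1.42 for Mrps2, with a median of 0.38. The wild-type arrays were the less alike, with a median ratio of the highest to the lowest array of 2.26 against 1.48 in PU.1 ki/ki. That ratio was wider in wild type for 61 of 76 genes (80.3%, against 74.5% of all named genes). The lowest value of a gene was on wild-type replicate 3 in 24 genes, on wild-type replicate 2 in 18, on wild-type replicate 1 in 14 and on a PU.1 ki/ki array in 20. The highest value was on a wild-type array in 44 and on a PU.1 ki/ki array in 32. The sign was the same in every fit that left out a single array for 43 genes, 27 higher and 16 lower. Against wild-type replicate 1 alone 26 of 76 changed sign.

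A second look at the same genes comes from their other probe sets, which are read on the same arrays. Of 80 such probe sets 58 were higher and 22 lower (median 0.31), where 52.8% of all probe sets were higher and 47.2% lower. Without overlap were 7 higher and 2 lower, against 6.62 and 5.46% of all probe sets. At an unadjusted p under 0.05 there were 6 and 1, against 4.6 and 3.68%, and 0 passed the adjusted test (lowest adjusted p = 0.463). Of the 42 genes with more than 1 probe set, 21 had the same sign on all of them. For 33 of the 80 the sign was opposite to that of the probe set used. By the rule of choice all 80 are dimmer on average than the probe set used, and some lie near the table's minimum of 10. For Mrpl13 and Mrpl42, 1 such probe set was at this minimum on 5 arrays. Signs of dim probe sets count here like those of bright ones. With the mean of all probe sets of a gene 51 of 76 were higher (31 of 49 large and 19 of 26 small subunit genes), so the near balance of the large subunit depends on the probe set taken.

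**Figure D4:**
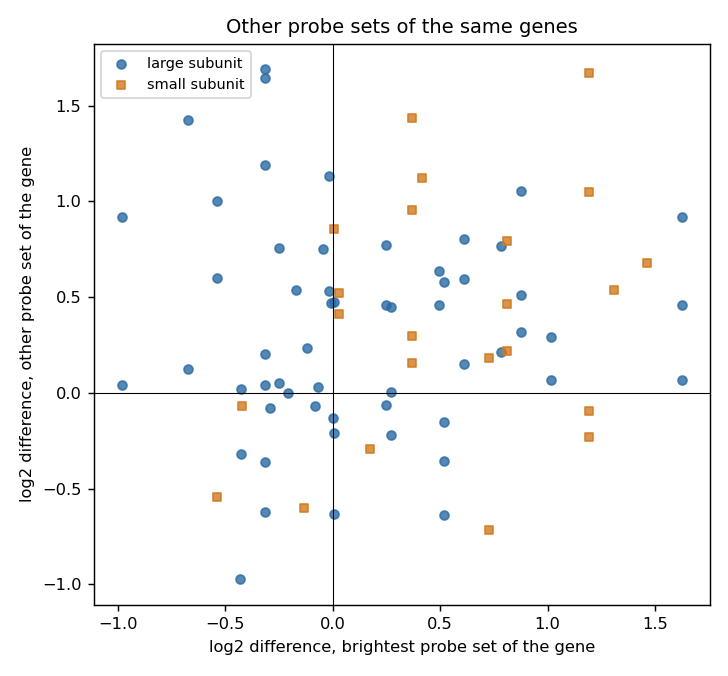
Log2 difference on the brightest probe set of a gene (x axis) and on each of its other probe sets (y axis), for the 80 other probe sets of 42 genes, by subunit. The points lie in all 4 quadrants, 33 of them with opposite signs, and 58 lie above 0 on the y axis.

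Other genes of mitochondrial translation also held 0 genes that passed. Of 6 listed symbols of ribosomal proteins with other names 4 were measured, and all 4 read higher (median 0.61) and overlapped between groups. A further listed symbol, Ict1, is an older name of Mrpl58, which is counted among the genes above and differed by -0.12. Chchd1 read 745, 735 and 1132 against 990, 715 and 170 (0.79 ± 0.72, and 0.019 without wild-type replicate 3). Gadd45gip1 read 282, 285 and 210 against 195, 38 and 465 (0.75 ± 0.94, and -0.23 without wild-type replicate 2). Single wild-type arrays thus set both estimates, and against wild-type replicate 1 alone 2 of the 4 were higher (median 0.13). The 27 genes of ribosome assembly and rRNA modification were higher in 16 and lower in 11 (median 0.045), with 1 higher and 0 lower without overlap (3.70 and 0%, against 6.44 and 6.36% of all named genes). The median ran from -0.010 to 0.28 as each array was dropped in turn and was -0.10 after quantile normalization, with 13 of 27 higher. That gene was Mterf4, which works with the rRNA methyltransferase Nsun4 in joining the subunits. It read 312, 283 and 319 against 92, 187 and 104 (1.32 ± 0.30, adjusted p = 0.482). Its partner Nsun4 went the other way and overlapped, with 70, 52 and 137 against 169, 441 and 110 (-1.34 ± 0.64). Mterf3 differed by 1.23 and Mettl15, which methylates the small subunit RNA, by -1.15, both with overlap.

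Of 16 genes of translation factors and related proteins 13 were measured, 7 higher and 6 lower. Their median of 0.58 ran from 0.050 to 0.51 as each array was dropped in turn. Mtrf1l, a release factor that ends translation at stop codons, read 471, 635 and 549 against 359, 304 and 415 without overlap (0.62 ± 0.19, adjusted p = 0.543). The initiation factor Mtif2 differed by 1.33 and the elongation factor Gfm1 by -0.45, both with overlap. Of the 17 aminoacyl-tRNA synthetases, which charge the mitochondrial tRNAs, 16 were measured, 6 higher and 10 lower (median -0.12). Without wild-type replicate 3 it was 11 higher (median 0.10), without PU.1 ki/ki replicate 3 it was 9 (0.18) and against wild-type replicate 1 alone 9 (0.065), so single arrays turned the direction. Among these 0 were without overlap, against 6.44% of all named genes higher and 6.36% lower. At an unadjusted p under 0.05 (limma) there were 0, against 4.39 and 4.27%. Yars2 differed by 1.18 ± 0.78 and Rars2 by -0.48 ± 0.29.

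Of the 12 genes of mitochondrial transcription, RNA turnover and genome maintenance 10 were higher and 2 lower (median 0.29). Without overlap were 2 higher genes (16.7%, against 6.44% of all named genes). Against wild-type replicate 1 alone 6 were higher (median -0.020), where 47.0% of all named genes were. Polg2, the accessory subunit of the mitochondrial DNA polymerase, read 267, 312 and 256 in PU.1 ki/ki and 95, 77 and 64 in wild type. Every PU.1 ki/ki value was over any wild-type value by a wide margin, and the difference of 1.82 ± 0.19 (adjusted p = 0.400) lay at 1.69 to 1.97 as each array was dropped in turn. The RNA polymerase Polrmt differed by 0.87 and Mgme1, a nuclease of mitochondrial DNA, by -0.41, both with overlap.

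Of the 10 transcription factors and coactivators of mitochondrial biogenesis 7 were higher and 3 lower (median 0.47). Against wild-type replicate 1 alone 5 were higher (median -0.100), where 47.0% of all named genes were. Gabpa, the DNA-binding subunit of GABP, whose motif is shown above, read 1116, 1115 and 878 against 796, 418 and 443. The groups did not overlap, and the difference was 0.96 ± 0.30 (adjusted p = 0.549) and 0.37 against wild-type replicate 1 alone. Myc, which drives cell growth, read 3482, 3084 and 3553 against 1668, 2115 and 1867 without overlap (0.84 ± 0.15, adjusted p = 0.430). Yy1 differed by -0.31 and Ppargc1a, close to the table's minimum of 10 at 15 to 34, by -0.43, both with overlap. Nrf1 itself read 585, 434 and 395 against 557, 354 and 417 (0.095 ± 0.25).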

How the data were processed

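The deposited values are array intensities, 1 per probe set and array, made by the authors with RMA per the submitters' processing notes (of unstated version). They are whole numbers on a linear scale from a minimum of 10, although RMA usually gives log2 values. How they were converted, and why they stop at 10, is not given in the sources used here. The sample descriptions speak of embryos, against all other labels, and were set aside. Groups and replicate numbers came from the sample titles. Of 45101 entries 64 control probe sets were left out. Gene names came from the platform annotation, with 1 symbol for 34945 probe sets, several for 932 (left unnamed) and none listed for 9160.

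With genotype as the only term, a linear model was fitted to log2(intensity + 1) of all 45037 probe sets with limma 3.58.1 (R 4.3.3), and p-values were adjusted over all of them (Benjamini-Hochberg, threshold 0.05). Differences of dim probe sets are understated by the added 1. Intensities of different probe sets were compared within a gene, to tell the brighter ones, and were summed over markers. Levels of different genes were not ranked against each other. The fit was also run on simulated data with an equal spread in both groups, whereas the wild-type arrays here were the less alike. No result rests on that run. The genes and lists were chosen with earlier results of these data known. Genes named were those without overlap or with an unadjusted p under 0.05, a panel of 13 genes and, of each list, up to 2 per direction by p, of which a part is given. The number of arrays, 3 per group, limits the precision. Figures were drawn with matplotlib 3.10.9.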

Additional observations from a re-analysis of the deposited data

How the results depend on the processing

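Under all 15 alternatives 0 of the 76 genes passed. Of the 20 named genes 14 kept the sign of their difference in all 15 settings. The cause of the changes below was not tested.

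The median difference of the 76 genes, 0.17, was 0.064 with arrays centred on their median, 0.014 after quantile normalization, 0.24 with the mean of all probe sets of a gene and 0.074 against wild-type replicate 1 alone. It was 0.10 to 0.23 when single arrays were left out, lowest without wild-type replicate 3. The counts at an unadjusted p under 0.05, 3 higher and 3 lower, were 6 and 1 with array weights (3.98 and 3.73% of all named genes), 1 and 4 after quantile normalization (3.26 and 5.92%), 4 and 1 with the mean of all probe sets (5.47 and 3.61%), 2 and 1 with a trended and robust prior (4.05 and 2.81%) and 1 and 0 without dim probe sets (5.07 and 2.05%). Against wild-type replicate 1 alone they were 9 and 5 (5.77 and 7.28%), where the lone array is assumed to vary like the PU.1 ki/ki arrays, so these are no test of wild-type spread. When single arrays were left out they were 1 to 7 and 1 to 6, the most without wild-type replicates 2 (7 higher and 4 lower, 5.15 and 5.00%) and 1 (6 and 6, 9.17 and 7.79%). Genes without overlap, 6 higher and 4 lower, were 3 and 5 after quantile normalization (4.94 and 8.78%) and 8 and 2 with the mean of all probe sets (8.04 and 6.19%). With fewer arrays groups separate more readily: there were 7 to 16 higher and 4 to 10 lower when single arrays were left out (9.62 to 16.6% and 9.36 to 15.2% of all named genes), and 30 and 23 against wild-type replicate 1 alone (25.3 and 28.7%).

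The replicate numbers did not pair the arrays: deviations of same-numbered arrays correlated at -0.02 to 0.02, and 2 of 6 arrays were closest to their own number. With the replicate block the unadjusted counts were 1 higher and 2 lower (4.33 and 3.30%).

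Of the named genes 6 changed sign. Mrpl3 was at -0.0077 with array weights, -0.099 with centred arrays, -0.090 with the mean of all probe sets, -0.11 after quantile normalization and -0.12 to 0.16 when single arrays were left out. Mrps12 was at -0.012 after quantile normalization and -0.048 to 0.42 when single arrays were left out. Against wild-type replicate 1 alone Mrpl11 was at -0.18, Mrps18b at 0.36 and Mrps30 at -0.19. When single arrays were left out Mrpl12 ranged from -0.60 to 0.0058, Mrps18b from -0.31 to 0.14 and Mrps30 from -0.43 to 0.78.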
